A study of Caenorhabditis elegans with 4 samples.

Results

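The regions described here are the EFL-1 binding regions (peaks) that lie on chromosome III of Caenorhabditis elegans. They were all peaks listed for chromosome III in the authors' combined list, 1038 of 5334 peaks on 6 chromosomes. The list of ChIP replicate 1 held 659 peaks on III and that of replicate 2 held 907, a mean of 783 ± 175 (SD, n = 2). The assay was ChIP-seq (chromatin immunoprecipitation and sequencing), in which DNA bound by a protein is collected with an antibody and sequenced.

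The series had 2 ChIP samples and 2 input samples, the inputs being crosslinked chromatin kept back before the precipitation. All 4 came from wild-type hermaphrodites of the N2 strain as first-stage (L1) larvae grown at 26 degrees C, and worms were fixed with 2% formaldehyde. The title speaks of EFL-1 with a GFP tag, and antibodies to GFP appear in the protocol, whereas the sample names and the genotype describe untagged worms with "Ab", so the precipitated form is uncertain. Peaks were made from whole larvae, so the cells in which a site was bound are not resolved. No read counts were among the files used here, so the depth behind a peak is unknown, and the larger list of replicate 2 cannot be told apart from deeper sequencing.

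EFL-1 is a worm member of the E2F family of transcription factors. It binds DNA together with its partner DPL-1, and with the retinoblastoma protein LIN-35 it forms part of the DREAM complex, which represses cell-cycle and germline genes in somatic cells. Worm autosomes have a central region of low recombination flanked by arms of high recombination, and highly expressed and essential genes are concentrated in the centres. Each peak is given by its position on the WS220 build and by its strength, the −log10 of the q-value that the authors deposited (a p-value adjusted for the many regions tested). Peaks were not assigned to genes, exons or promoters, because no annotation of WS220 was at hand.

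Chromosome III was singled out for description with its high density already known. Its density is therefore given as a description, and no p-value is read from it. III was the most densely bound autosome in all 3 lists. The combined list held 75.4 peaks per Mb on III, the replicate 1 list 47.9 and the replicate 2 list 65.9. The next autosome, I, had 67.9, 37.7 and 56.6 in the same lists. The other 4 autosomes together had 54.5 peaks per Mb in the combined list, and III stood 1.38-fold above them. It was 1.11-fold denser than I and 1.84-fold denser than V. With 1 peak kept from each run of neighbours under 10 kb apart, the ratio to the other autosomes was 1.15. III was then no longer the densest autosome, with 29.7 runs per Mb against 30.3 on I, 27.7 on II, 26.05 on IV and 21.2 on V.

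**Figure D1:**
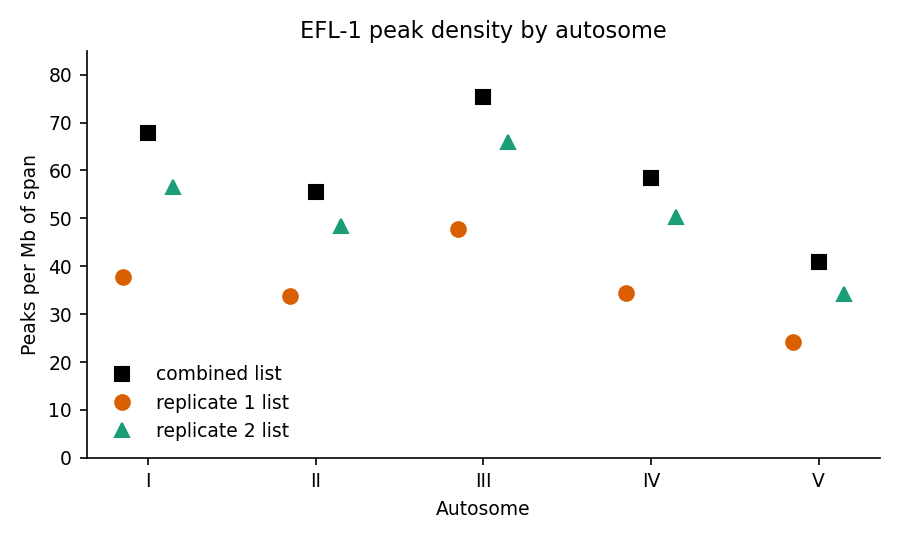
Peaks per Mb of chromosome span (vertical axis) for each autosome (horizontal axis), with 1 symbol per peak list and no error bars. Chromosome III has the highest symbol in every list, at 47.9, 65.9 and 75.4 peaks per Mb in replicate 1, replicate 2 and the combined list.

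In the combined list, the density ratio of III to the other autosomes was lowest among the weakest peaks. The change of this ratio with strength was not tested. All autosomal combined peaks were split by strength into 4 equally large groups. In the weakest group III had 16.3 peaks per Mb against 14.2 on the other autosomes, or 1.15-fold. The ratio was 1.35 in the second group and 1.49 in the third. In the strongest group it was 1.55, with 20.6 peaks per Mb against 13.3. It was lower again, at 1.27, for the strongest 10% of peaks. The very top of the list did not favour III. Of the 100 strongest combined peaks 15 lay on III, 32 on IV and 23 on V. Of the strongest 1000, III held 234 (23.4%), the most of any autosome. Of all combined peaks, III held 19.5%, IV 19.1% and V 16.0%.

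The share of strong peaks on III did not differ detectably from that elsewhere. Of the 1038 peaks, 284 (27.4%, 95% interval 24.7 to 30.2) were among the strongest 25% of autosomal peaks, which began at a strength of 48.02. The share was 24.4% on the other autosomes (Fisher's exact test, adjusted p = 0.10) and 23.3% over all chromosomes. For the strongest 10% the difference was -0.84 percentage points, in the opposite direction (Fisher's exact test, adjusted p = 0.51). It was 3.002 points for the strongest 25%, and 1.01 points in the replicate 1 list alone. Keeping only the strongest peak of each run under 10 kb gave 9.16 points (Fisher's exact test, adjusted p = 0.00327), where a longer run offers more peaks to choose from. Median strength on III was 16.4 in the combined list, with the middle 50% of peaks from 5.61 to 51.9, against medians of 16.2 on I, 16.1 on II, 11.8 on IV and 11.5 on V. The replicate 1 median on III was 12.8 and the replicate 2 median 13.8, a mean of 13.3 ± 0.68 (SD, n = 2). Both were below those on I (15.3 and 17.0) and on II (13.2 and 15.6).

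The strongest peaks of III were spread from end to end of the chromosome. The strongest, at III 13462353 to 13466673, lay 97.8% of the way along. It was also the widest on III, at 4321 bp, and ranked first in the combined list of all chromosomes. Replicate 1 gave it a strength of 224 and replicate 2 one of 152, and its combined strength was 288, so here replicate 1 was the stronger, unlike at most sites. The peak at III 2804386 to 2805717 had 147 and 191 in replicates 1 and 2, and 220 when combined. The peak at III 1532874 to 1534006 had 141 and 193 in the replicates and 213 in the combined list.

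The remaining 7 of the 10 strongest had combined strengths from 155 to 183, and replicate 2 was stronger than replicate 1 at each of them. The one at III 5190100 to 5191025 had 94.8 in replicate 1 and 167 in replicate 2. The peak at III 12250004 to 12250797 was more even, with 150 and 167, and ranked 16 and 31 in the genome-wide replicate lists. The peak at III 348120 to 350500, 2381 bp wide, differed most, with 67.3 in replicate 1, at rank 458, and 197 in replicate 2, at rank 11. Of the 10 strongest, 4 lay in the first 25% of the chromosome's span, 2 in the middle 50% and 4 in the last 25%. Of all 1038 III peaks, the same parts held 177, 620 and 241. With only 10 peaks, no preference for a part can be read from this.

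Peaks on III were narrow. Their median width was 419 bp, with the middle 50% from 333 to 560 bp, and medians on the other autosomes ran from 434 to 463 bp. The replicate medians on III were 416 and 408 bp. A width of at least 1 kb was reached by 63 peaks (6.07%, 4.70 to 7.70), against 7.59% on the other autosomes (Fisher's exact test, adjusted p = 0.15) and 7.84% of peaks over all chromosomes. The difference was clear against V alone, where 10.5% were that wide (Fisher's exact test, adjusted p = 0.00194). Width and strength rose together over the 1038 peaks (Spearman's rho 0.64), which share their libraries and are not replicates.

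The measures nevertheless came apart at single sites. After the strongest peak, the widest on III was at 6871004 to 6874138, 3135 bp, with strengths of 13.8 and 13.1 in the replicates and a combined strength of 51.9. The peak at III 3866951 to 3869876 was 2926 bp wide and had 116 in replicate 1 and 115 in replicate 2, but 98.5 in the combined list. Such a case was rare. Of the 632 III peaks found in both replicate lists, 551 had a combined strength above both replicates, 68 lay between them and 13 lay below both.

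At the other extreme, 27 III peaks were under 100 bp wide, 2.60% against 1.79% on the other autosomes (Fisher's exact test, adjusted p = 0.15) and 1.82% over all chromosomes. None of the 27 was found in both replicate lists, 16 were in neither, and their strengths reached at most 5.47. The narrowest was a call of 3 bp at III 6000987 to 6000989, with a combined strength of 2.30.

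Binding was densest in the centre of III and sparsest at its left end. The middle 50% of the span held 620 of the 1038 peaks (59.7%, 56.7 to 62.7). Over all chromosomes the middle 50% held 56.3%. The centre had 90.0 peaks per Mb, the first 25% of the span 51.4 and the last 25% 70.0. Replicate 1 gave 57.1 in the centre, 31.1 on the left and 46.2 on the right, and replicate 2 gave 77.4, 44.7 and 63.9, so the order was the same in both. The centre share did not differ detectably from the 57.0% on the other autosomes (Fisher's exact test, adjusted p = 0.15). With 1 peak kept per run under 10 kb the difference was -0.46 percentage points, in the opposite direction. The share was higher than on II (54.1%, adjusted p = 0.0301 in Fisher's exact test) and IV (53.6%, adjusted p = 0.0203), and lower than on V (64.4%, adjusted p = 0.0487).

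The ends of III were not alike. The right end held 241 combined peaks and the left end, of the same length, 177, which is 1.36-fold (exact binomial test, two-sided, adjusted p = 0.00270). The ratio was 1.49 in replicate 1 (159 and 107 peaks) and 1.43 in replicate 2 (220 and 154 peaks), with the same adjusted p in the exact test. With 1 peak kept from each run of peaks less than 10 kb apart, 103 and 83 were left, or 1.24-fold (exact binomial test, adjusted p = 0.16). Unequal ends were not particular to III. In the combined list the left and right ends held 152 and 237 peaks on II, 293 and 181 on IV, and 178 and 126 on V. On I they held 225 and 218. The ends of these other autosomes were not tested.

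**Figure D2:**
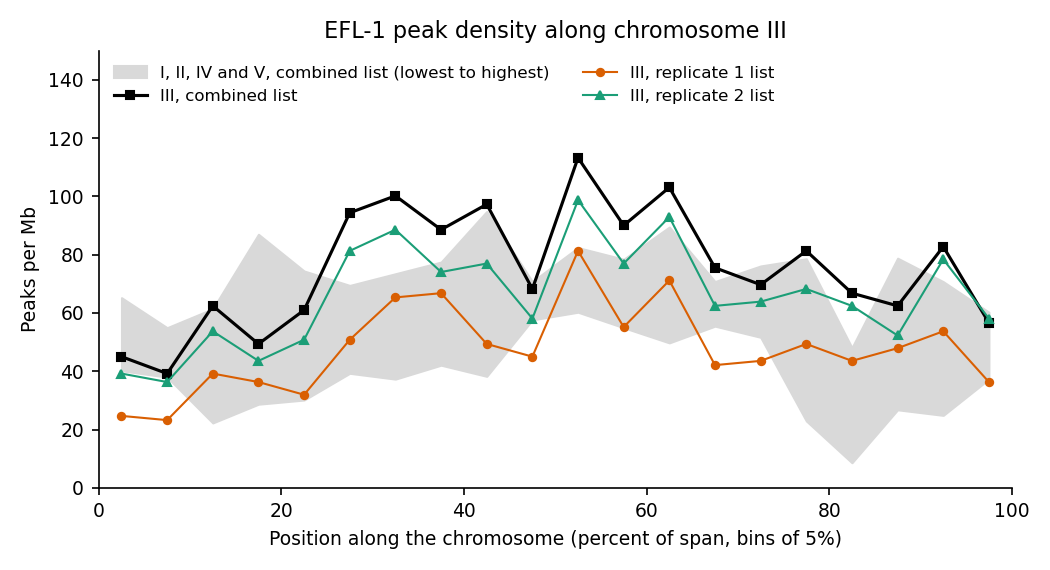
Peaks per Mb (vertical axis) in 20 bins of 5% of the chromosome's span (horizontal axis) for III in each list, with the range of the 4 other autosomes in the combined list as a grey band. Chromosome III lies above the band in 12 bins, reaches 113 peaks per Mb just right of the middle and is lowest, at 39.2, near its left end.

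In steps of 5% of the span, the combined density on III ran from 39.2 to 113 peaks per Mb, a 2.89-fold range. III was denser than each of the other autosomes in 12 of the 20 bins, 8 of them in the centre, and below all of them in none. In windows of 1 Mb the profile was a broad plateau. The 4 windows from 4000001 to 6000000 and from 7000001 to 9000000 held 100 combined peaks each, with 76 in the window between them. The first window, from 1 to 1000000, held the fewest, with 43 combined peaks, 25 in replicate 1 and 40 in replicate 2. Across the 14 windows, replicate 1 found between 0.60 and 0.80 times as many peaks as replicate 2.

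Density and strength did not move together along the chromosome. Median combined strength was highest, at 22.5, in the window from 2000001 to 3000000, which held 51 peaks. It was lowest, at 10.2, in the next one, from 3000001 to 4000000, which held 79. The share of strong peaks was 27.1% in the centre (168 of 620) and 27.8% at the ends (116 of 418), with no detectable difference (Fisher's exact test, adjusted p = 0.83). With the centre narrowed to the middle 33.3% of the span, the difference turned from -0.65 to 1.19 percentage points. The left end had 22.0% strong peaks and the right end 32.0%.

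**Figure D3:**
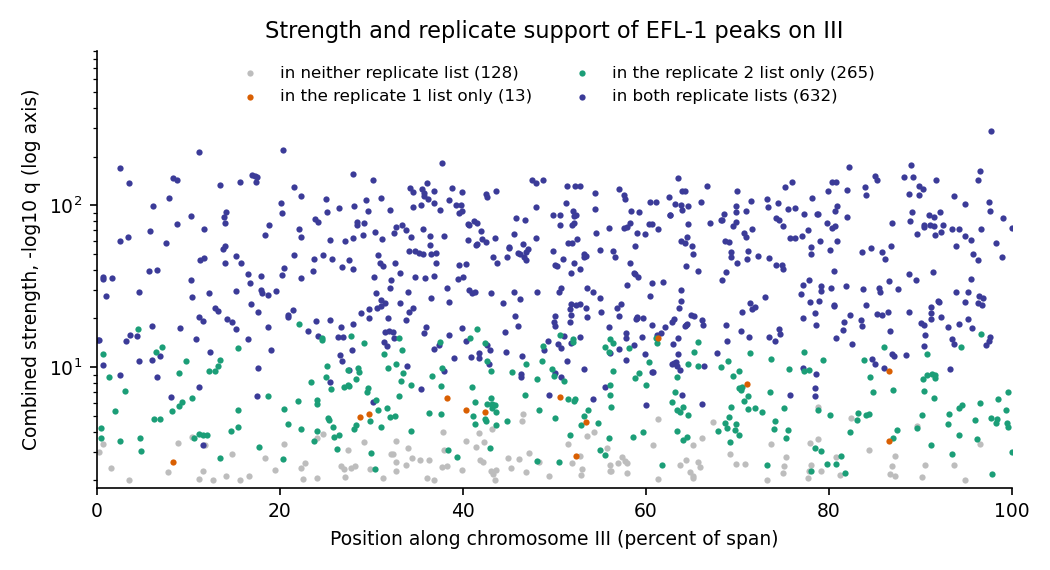
Combined strength (vertical axis, log scale) of each of the 1038 peaks of III against its position in percent of the span (horizontal axis), coloured by the replicate lists that held it. Strong peaks occur along the whole chromosome, and peaks missing from a replicate list reach a strength of 18.6 at most.

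Most III sites were found in both replicates, and the weak ones mostly were not. Of the 1038 combined peaks, 632 (60.9%, 57.8 to 63.9) had a partner in both replicate lists, 265 (25.5%) in replicate 2 only, 13 (1.25%) in replicate 1 only, and 128 (12.3%) in neither. Over all chromosomes 56.1% were in both lists. Median combined strength was 41.9 for the peaks in both lists, 5.88 for replicate 2 only, 5.26 for replicate 1 only and 2.56 for neither. The median width was 466 bp for the first of these classes and 259 bp for the last. The combined list and the replicate lists rest on the same 2 ChIP samples, so the link between strength and class is partly built in.

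The share in both lists was higher on III than on the other autosomes, at 60.9% against 56.2% (Fisher's exact test, adjusted p = 0.0282). This test counted peaks as independent, and its adjustment included the density, which can make p smaller. With autosomes as the unit, an exact test of 1 against 4 cannot go below p = 0.2. The share in both lists was 58.7% on II, 56.0% on IV, 55.6% on V and 54.7% on I. Only II was not detectably lower than III (Fisher's exact test, adjusted p = 0.35). The difference of 4.71 percentage points was no longer called at a minimum overlap of 50% of the peak (4.30 points; Fisher's exact test, adjusted p = 0.0606) or with chromosome I left out (4.17 points; Fisher's exact test, adjusted p = 0.0880). The difference was not seen between peaks of like strength, as far as this could be examined. In the weakest of the 4 strength groups 1 of 224 III peaks was in both lists, and in the strongest all 284 III peaks and all 911 others were, so these groups could show no difference. In the second group the share was 33.7% on III against 33.8% elsewhere, and in the third 94.9% against 94.1% (Fisher's exact test, adjusted p = 1 in both). Fewer III peaks fell in the weakest group, 21.6%, than in the strongest, 27.4%.

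Taken from the replicate lists, 641 of 659 replicate 1 peaks on III (97.3%, 95.7 to 98.4) overlapped a replicate 2 peak. The figure was 97.5% on the other autosomes (Fisher's exact test, adjusted p = 0.67) and 97.1% over all chromosomes. Of the 907 replicate 2 peaks, 639 (70.5%, 67.4 to 73.4) overlapped replicate 1, against 66.9% on the other autosomes (Fisher's exact test, adjusted p = 0.10) and 66.6% over all chromosomes. The 18 unmatched replicate 1 peaks had a median strength of 2.55 and at most 9.43. For the 268 of replicate 2 the median was 3.87 and the highest 19.8. The share in both lists was 60.3% in the centre of III and 61.7% at its ends, with no detectable difference (Fisher's exact test, adjusted p = 0.83). By windows of 1 Mb the share ran from 46.8% between 3000001 and 4000000 to 70.6% between 2000001 and 3000000.

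The 5 strongest III sites missing from a replicate list were all missing from replicate 1. The first was at III 3036012 to 3036434, with a strength of 19.8 in replicate 2 and 18.6 in the combined list. The next, at III 623755 to 624227, had 16.8 and 17.2, and the third, at III 5714885 to 5715934, had 13.8 and 17.2. Conversely, 4 replicate 1 peaks (0.61%) and 3 replicate 2 peaks (0.33%) on III had no combined peak. On the other autosomes these shares were 0.27% and 0.60%. The absent peaks of III were weak, the strongest reaching 3.31 at III 10763263 to 10763352.

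Where both replicates had a site, they placed it almost at the same position. On III 637 pairs of peaks were each other's strongest partner, and their midpoints lay a median 15 bp apart, with 90% of pairs within 72.7 bp. The midpoints were less than 100 bp apart in 591 pairs (92.8%), against 90.4% of pairs on the other autosomes (Fisher's exact test, adjusted p = 0.15) and 90.5% over all chromosomes. Replicate 2 peaks were slightly wider, by a median ratio of 1.04.

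Strength ranked the III pairs alike, with a Spearman's rho of 0.94 over 637 pairs, the same as the 0.94 over 2115 pairs of the other autosomes. These pairs share 2 libraries and are not replicates. Replicate 2 was the stronger at 600 of 637 pairs (94.2%), against 94.5% over all chromosomes, and it exceeded replicate 1 by a median of 1.87-fold, with the middle 50% of pairs from 1.32 to 2.62. This ratio was larger at weak sites. It was a median 2.77 at the 168 pairs with a replicate 1 strength under 5, 1.76 at the 120 pairs from 20 to 50, and 1.11 at the 51 pairs of 100 or more. Since the groups were set by replicate 1 alone, such a trend can also arise from the grouping.

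**Figure D4:**
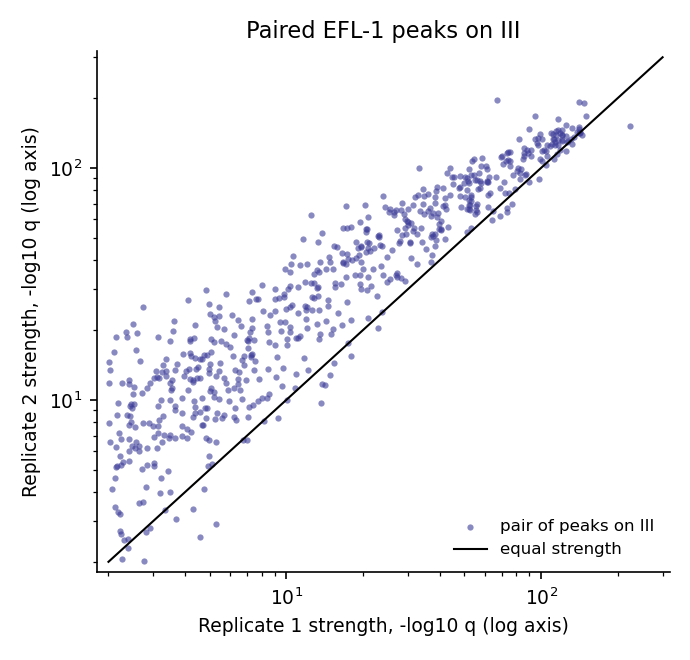
Replicate 2 strength (vertical axis) against replicate 1 strength (horizontal axis), both −log10 q on log scales, for the 637 paired peaks of III, with a line of equal strength. Of the points, 600 lie above the line, and the distance from it shrinks towards strong peaks.

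Pairs with the most unequal strengths were rare. Among pairs above 20 in either replicate, the largest ratio was 9.17, at III 13105459 to 13106158, where replicate 1 had 2.74 and replicate 2 had 25.2. The next was 8.52, at III 8125212 to 8125556, with 2.49 and 21.2. The smallest ratio, 0.68, belonged to the strongest peak of the chromosome, at III 13462585 to 13466593 in replicate 1, where the replicate midpoints were 577 bp apart. The other 4 of the 5 smallest ratios lay between 0.88 and 0.91. The 20 strongest III peaks of each replicate had 12 sites in common (60%, 36.1 to 80.9), and the strongest 100 had 86 (86%, 77.6 to 92.1).

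Sites on III were closely spaced, with few long empty stretches. The median gap between neighbouring combined peaks was 6936 bp, against 8999 bp over the other autosomes, and the replicate medians on III were 12122 and 8634 bp. No gap on III was shorter than 205 bp in the combined list, 203 bp in replicate 1 or 202 bp in replicate 2, and the shortest gap on any other autosome was 200 bp. No 2 neighbours on an autosome are thus listed nearer to each other than 200 bp. The longest stretch without a combined peak was 114491 bp, from 668736 to 783226 near the left end. The next ran over 98017 bp from 2173124, over 96313 bp from 6020105, over 95096 bp from 503013 and over 93200 bp from 12058721. None of these 5 held a peak of either replicate list. Each of the 138 windows of 100 kb on III held at least 1 combined peak, whereas 1 window on I, 1 on II, 5 on IV and 23 on V held none. The mean count per window was 7.52 on III, 6.77 on I, 5.54 on II, 5.83 on IV and 4.07 on V. Shorter gaps and fewer empty windows go with a higher density, and III was singled out with its high density known. How far density alone gives these values was not tested.

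Neighbours at 10 kb were more frequent on III than elsewhere, whereas no difference was detected at 1 kb. Of the III peaks, 234 had another peak within 1 kb (22.5%, 20.03 to 25.2). The share was 20.9% on the other autosomes (Fisher's exact test, adjusted p = 0.28) and 20.2% over all chromosomes. It was higher on III than on I (17.0%; Fisher's exact test, adjusted p = 0.00766). II had 19.2%, V 22.1% and IV 24.98%, none of them detectably different from III (Fisher's exact test, adjusted p = 0.16, 0.82 and 0.26). At less than 5 kb the shares were 64.5% and 60.5% (Fisher's exact test, adjusted p = 0.0563). At less than 10 kb they were 83.1% and 76.2% (Fisher's exact test, adjusted p = 5.89e-06). Where peaks are denser, nearer neighbours are also more frequent, and III was singled out with its high density known. These tests therefore cannot separate spacing from density, and how far density alone gives this difference was not tested.

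**Figure D5:**
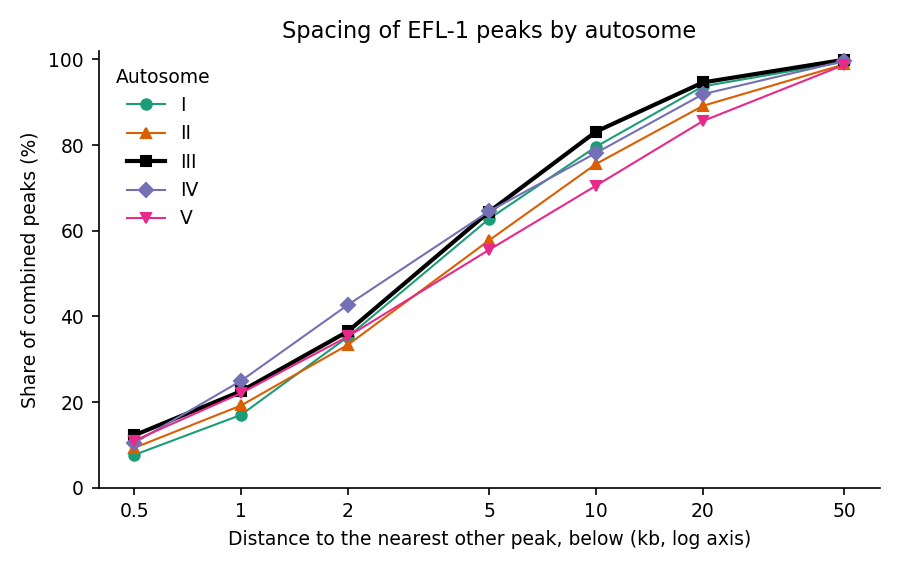
Share of combined peaks (vertical axis) whose nearest other peak is closer than the distance on the horizontal axis (log scale), 1 line per autosome. Chromosome III is highest below 0.5 kb, with 12.2%, and from 10 kb on, with 83.1% at 10 kb and 94.6% at 20 kb, while IV is highest from 1 to 5 kb.

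Joining peaks less than 10 kb apart gave 409 runs on III. Of these, 7 held 10 or more peaks, 78 peaks in all (7.51% of III), while I and V had no such run, II had 1 and IV had 2. Long runs are also more frequent where peaks are denser, and how far density alone gives these counts was not tested. The variance of the peak counts in windows of 100 kb, divided by their mean, was 1.64 on III. It was 1.59 on I, 1.51 on II, 1.85 on IV and 2.25 on V. The longest run of any autosome, of 13 peaks, was on IV, and the largest on III held 12 peaks each. The run from 5917237 to 5959401 was mostly weak, with a median strength of 5.89, 3 of its 12 peaks in both replicate lists and none among the strongest 25%. The run from 7708942 to 7738140 was alike, with a median of 7.28 and 3 peaks in both lists. The run from 8767841 to 8815941 was strong, with a median of 24.5, 9 peaks in both lists and a maximum of 123.

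The densest windows of 100 kb also differed in how far both replicates saw their sites. The window from 7100001 to 7200000 had 18 combined peaks, 13 in replicate 1 and 17 in replicate 2, with 13 of the 18 in both lists. The windows starting at 5900001, 7700001, 8700001 and 8800001 had 16 combined peaks each. Replicate 1 held 5 peaks in each of the first pair of these and 11 and 12 in the second pair, where replicate 2 held 15 in each. The first pair thus rested mainly on peaks missing from replicate 1.

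Tight clusters, with peaks less than 1 kb apart, were small. III had 76 runs of 2 such peaks, 20 runs of 3 and 5 runs of 4 or more. The run at III 3065816 to 3070463 alternated stronger and weaker peaks, with combined strengths of 35.5, 2.38, 63.6, 4.13 and 115 from left to right. Its 3 stronger peaks were in both replicate lists, with 9.05, 47.6 and 54.4 in replicate 1 and 24.2, 81.9 and 109 in replicate 2. The run at III 3309002 to 3312401 had 5 weak peaks, at most 6.30, of which none was in replicate 1 and 3 were in replicate 2. The run at III 1920915 to 1926906 had 4 peaks, all in both lists, with combined strengths of 84.3, 44.2, 77.6 and 55.96.

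Peaks with a neighbour less than 1 kb away differed from the rest of III. They were more often at least 1 kb wide, 31 of 234 (13.2%) against 32 of 804 (3.98%; Fisher's exact test, adjusted p = 4.35e-06). They were less often in both replicate lists, 54.3% against 62.8% (Fisher's exact test, adjusted p = 0.0334). Their median combined strength was 14.2, against 17.3 for the rest, and weak peaks were less often in both lists. How far strength gives the difference between the lists was not tested. The share of strong peaks among close neighbours, 23.9% against 28.4%, was not detectably different (Fisher's exact test, adjusted p = 0.21). These tests count peaks of the same run as independent, which can make p too small. The lists did not disagree on joining such neighbours, since none of the 133 gaps of less than 1 kb on III was spanned by a single peak of either replicate. The reverse was seen at 10 combined peaks (0.96% of III) that covered 2 or more peaks of replicate 1 and at 7 (0.67%) that covered 2 or more of replicate 2. On the other autosomes these shares ran from 0.47% on II to 1.27% on IV for replicate 1. For replicate 2 they ran from 0.47% on V to 1.18% on IV.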

How the data were processed

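The authors deposited 3 peak lists, 1 for each ChIP replicate and 1 combined, and the values of each are q-values per peak. Per the file headers, positions are on WormBase WS220 after a liftover, which changed the length of 4 of the combined peaks of III, and peaks came from PeakSeq. Its version, the aligner, the filters and the way of combining are not given in the sources used. No q-value exceeds 0.01. The 2 input samples enter only through the calling. Samples were grouped by title. Nothing says that the replicates came from separate cultures, so their spread may be technical.

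Strength is −log10 q. A minimum overlap of 1 bp made a match. A chromosome's span ends at its last peak in any list, and the centre is its middle 50% by peak midpoint. Fisher's exact test (two-sided) served for shares and exact binomial tests for the arms of III and, as a description only, for densities, Benjamini-Hochberg adjusted over the 8 comparisons of III with the other autosomes, over the 4 single autosomes, or within each smaller family, with a threshold of 0.05. Both count peaks as independent, which makes p too small where peaks cluster. The 8 comparisons include the density, known to be high beforehand, which can make the other adjusted p-values smaller. Intervals (95%, Clopper-Pearson) reflect counting error only. Functions were tested on simulated peaks. Alternatives were replicate lists alone, stricter strengths and overlaps, other spans, centres, distances and widths, and 1 peak per run.

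The regions and comparisons were chosen with earlier results of these data known. The tests by strength group, of arms, of close neighbours within III, of midpoints and of very narrow peaks, and leaving out single autosomes, were added after seeing the lists. Regions named are the 10 strongest, 5 widest, 3 largest runs under 1 kb, 5 densest windows, 5 longest gaps, 5 strongest missing peaks, 5 largest and 5 smallest replicate ratios and 3 strongest absent peaks, some given as ranges; the narrowest peak and the runs under 10 kb were added after their values were seen. Genes, sequence and motifs were planned but need a WS220 genome or annotation and were not analysed here. Python 3.11.15, SciPy 1.17.1 and pandas 2.3.3 were used.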

Additional observations from a re-analysis of the deposited data

How the results depend on the processing

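Among 63 alternative values for 12 results, 51 left the call and the direction as they were. The 12 results include the density, whose call was not open because III was singled out with its high density known. When runs under 10 kb counted as 1 peak, the density ratio of III to the other autosomes fell to 1.15, the centre share turned to -0.46 percentage points against the other autosomes, and the strong share rose to 9.16 points above them (Fisher's exact test, adjusted p = 0.00327); by construction this setting thins dense chromosomes most, and the strongest peak of a longer run is taken from more peaks. The excess of III in the share found in both replicate lists was no longer called at an overlap of 50% of the peak (4.30 points), at a strength of at least 5 (1.94), in the weaker 50% of peaks (1.15) or without chromosome I (4.17); the cause was not tested. The strong share turned to -0.84 points for the strongest 10%. The strong share of the centre of III against its ends turned to 1.19 points with the middle 33.3% as centre. The neighbour share was called at 10 kb (6.91 points), where it cannot be separated from density, and the centre share without chromosome V (4.999 points). Leaving out either replicate, the density ratio was 1.42 to 1.50, the strong share 1.01 to 3.44 points, the centre share 2.11 to 2.16, the neighbour share 0.80 to 1.01, the wide share -1.61 to -1.57 and the strong share of the centre -4.02 to -0.68. The replicate ratio on III was 1.87, and 1.86 for pairs overlapping by 50%. What depth limits could not be assessed without read numbers. No paired analysis was possible because no list gives values for input.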
